A study of Mus musculus with 8 samples.

Results

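Fibroblasts incubated with the supernatant of ultracentrifuged cardiomyocyte media were compared with fibroblasts incubated with unused media. The samples were chosen by their titles, ultracentrifuged media from cardiomyocytes against unused cardiomyocyte media, and no measured value entered the choice. The titles gave 2 arrays of ultracentrifuged media, called media supernatant here, and 3 of unused media, 5 of the 8 arrays in all. The remaining 3 arrays, of fibroblasts with whole cardiomyocyte media, shared the estimate of the spread. All arrays held RNA of NIH 3T3 cells, an immortal line of mouse embryo fibroblasts, and each cell culture was incubated for 24 h in Claycomb media, the medium made for the HL-1 line of atrial cardiomyocytes. For media supernatant, Claycomb media that had been on HL-1 cells was freed of debris by slower spins and then ultracentrifuged for 2 h to pellet microvesicles. Unused media had been on no cells and had not been centrifuged, so that conditioning by HL-1 cells and the spins cannot be told apart in these 5 arrays. NIH 3T3 and HL-1 are each a single cell line. The sources used here do not say whether the cultures came from separate experiments, so the p-values cover no more than the spread among arrays, which may be technical. Expression in fibroblasts with media supernatant was asked about in the study because soluble molecules, and not microvesicles, remain in it.

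A cell that divides first copies its DNA with the helicase of the MCM proteins, polymerases and ligases, packs it with new histones, and then parts the copies with the kinases, kinesins and kinetochore proteins of mitosis. Genes of the replication step are known to be controlled by E2F factors, and many genes of mitosis by the MuvB complex through the promoter element CHR and by NF-Y through CCAAT boxes. Cholesterol is made from acetyl-CoA through mevalonate and squalene, and the factor SREBP2 is known to raise the enzymes of this path when sterols in the cell are low.

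Mitosis and replication were the lists with most called genes, and cholesterol synthesis the list with the highest median, and stretches of 6 of their promoters are shown to place the known elements. The 6 stretches all hold marked letters and do not stand for the whole lists. Each covers the 150 bases before the RefSeq start on the strand of the gene, in GRCm38.p6. The genes are Cdc20 (chr4:118437344-118437493, minus strand), Kif22 (chr7:127042421-127042570, minus strand) and Cdk1 (chr10:69352913-69353062, minus strand) of mitosis, Mcm6 (chr1:128359706-128359855, minus strand) of replication, and Mvd (chr8:122443423-122443572, minus strand) and Hmgcs1 (chr13:119690201-119690350, plus strand) of cholesterol synthesis. Capitals mark TTTGAA (CHR) and CCAAT on either strand in the promoters of mitosis genes, TTTGGCGC and GCGCGAAA, the reverse complement of TTTCGCGC (E2F), in Mcm6, and CCAAT and CACCCCAC, the core of the sterol regulatory element, in the cholesterol genes. Hmgcs1 holds CACCCCAC and Mvd does not.
Cdc20: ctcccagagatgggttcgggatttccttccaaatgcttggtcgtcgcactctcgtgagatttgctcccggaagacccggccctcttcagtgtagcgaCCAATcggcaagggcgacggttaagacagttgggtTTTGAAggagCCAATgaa
Kif22: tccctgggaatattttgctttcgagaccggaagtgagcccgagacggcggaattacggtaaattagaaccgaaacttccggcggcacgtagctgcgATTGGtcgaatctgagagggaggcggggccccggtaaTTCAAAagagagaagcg
Cdk1: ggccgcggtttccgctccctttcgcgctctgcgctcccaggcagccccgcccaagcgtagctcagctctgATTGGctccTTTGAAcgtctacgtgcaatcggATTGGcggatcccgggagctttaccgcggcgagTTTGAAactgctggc
Mcm6: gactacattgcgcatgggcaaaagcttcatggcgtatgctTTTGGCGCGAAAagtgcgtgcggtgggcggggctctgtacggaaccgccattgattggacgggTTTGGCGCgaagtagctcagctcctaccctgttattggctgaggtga
Mvd: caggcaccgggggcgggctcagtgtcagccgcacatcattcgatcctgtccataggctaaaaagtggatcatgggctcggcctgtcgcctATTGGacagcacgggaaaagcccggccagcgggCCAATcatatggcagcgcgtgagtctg
Hmgcs1: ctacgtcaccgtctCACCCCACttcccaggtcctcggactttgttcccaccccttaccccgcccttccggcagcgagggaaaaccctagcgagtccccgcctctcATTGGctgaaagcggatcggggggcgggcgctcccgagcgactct

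Over the full promoter windows of 300 bases and both strands, TTTGAA occurred in 28 of the 45 tested mitosis genes with a window (62.2%), compared with 14.6% of the 7252 tested genes with a window and 20.2% of all 27025 genes with one. CCAAT occurred in 29 of the 45 mitosis genes (64.4%) and in 13 of 13 genes of cholesterol synthesis, compared with 44.1% of tested genes and 41.1% of all. The E2F letters TTTCGCGC, TTTGGCGC or TTTCCCGC were found in 13 of 34 replication genes (38.2%), compared with 4.11% of tested genes and 2.12% of all. Of the 13 cholesterol genes, 1 held CACCCCAC and none the full sterol regulatory element of 10 bases, which 3.75% and 0.0827% of tested genes hold. These counts describe letters in a window and are no evidence of binding.

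The arrays lay on 2 chips, and chip 1 held media supernatant replicate 1 and all arrays of unused media, while media supernatant replicate 2 lay on chip 2. Of whole cardiomyocyte media, replicate 1 lay on chip 1 and replicates 2 and 3 on chip 2. A chip effect can thus be estimated only from media supernatant and whole media, whose contrast is itself unbalanced by chip. Probes detected per array numbered 10956 and 11758 with media supernatant and 10545 to 11157 with unused media. The background signal was 89.0 and 47.1 for the 2 arrays of media supernatant and 90.3 to 92.5 for those of unused media. Unused media replicate 3 stood somewhat apart, with a median standard error over beads of 9.34% of the signal, compared with 4.26% and 5.13% for media supernatant and 4.46% and 5.19% for the other arrays of unused media. Precision is limited by the small number of arrays. As a check of the cell type, 16 of 16 fibroblast markers on the array were detected with media supernatant and 15 or 16 with unused media, with summed signals of 60402 and 49824 against 47753 to 54221. Of 23 cardiomyocyte markers 6 and 5 were detected with media supernatant and 6 on each array of unused media, and the summed signals were 1445 and 1263 against 1097 to 1396. Atp2a2, Myl4 and Tnnc1 were detected on all 5 arrays, and Nkx2-5 on both arrays of media supernatant and 2 of unused media. The markers Tnni3, Actn2, Mybpc3 and Ryr2 were among those not detected on any of the 5 arrays. Of macrophage, endothelium and adipocyte markers at most 1 of each list was detected on an array of media supernatant, and at most 3 with unused media.

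Of 8885 genes tested, 194 (2.18%) passed at an adjusted p under 0.05, 65 of them higher (0.732%) and 129 lower (1.45%) with media supernatant. At an unadjusted p under 0.05 the counts were 488 higher and 567 lower. The median log2 fold change over all tested genes was -0.0026. Groups that do not overlap were frequent, 14.9% of all tested genes being higher and 16.4% lower in both arrays of media supernatant than in every array of unused media. The 15 largest rises and the 15 largest falls were taken only from called genes with groups apart. For these genes, groups apart are no further support. With chip as a block 60 genes were higher and 147 lower. Scaling the arrays to a common median moved the median of all genes to 0.26, and then 53 genes were higher and 10 lower (15.9% of the called genes lower, compared with 66.5%). Relative to that shift the median of the mitosis genes was -1.06. No gene passed without media supernatant replicate 1, and Aldh3a1 alone passed without replicate 2 (adjusted p = 0.0421). Apart from Aldh3a1, every call against unused media therefore rests on both arrays. Leaving out unused media replicate 1, 2 or 3 gave 31, 34 or 30 genes higher and 76, 73 or 73 lower, and leaving out cardiomyocyte media replicate 2 gave 41 higher. Calls named below that ended without 1 of the arrays of unused or cardiomyocyte media are given with the highest adjusted p. Of the 79 called genes named here, the calls of 42 ended with median scaling.

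**Figure D1:**
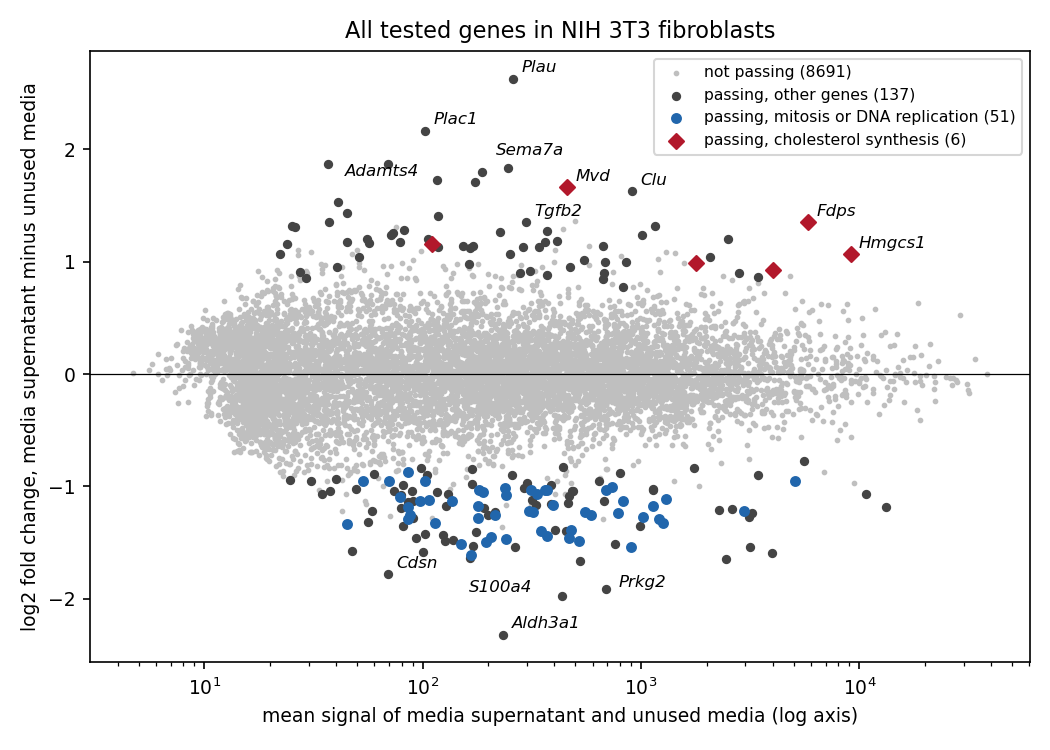
Each point is 1 of 8885 tested genes, with the mean signal of the 2 groups on the x axis (log axis) and the log2 fold change of media supernatant minus unused media on the y axis. The 34 called genes of mitosis and the 17 of DNA replication lie below 0, and the 6 called genes of cholesterol synthesis lie above it.

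Genes of mitosis fell in fibroblasts with media supernatant. Of 54 tested members of the list 34 fell, none rose and 20 did not pass. Their median log2 fold change was -1.12, compared with -0.0026 over all genes. In RNA of whole cultures, fewer dividing cells and less RNA of these genes per cell cannot be told apart. Ube2s, a ubiquitin-conjugating enzyme, was the 1 member with a value above 0 (0.16, adjusted p = 0.823). The list median per array, relative to the mean of unused media, was -1.15 and -1.03 with media supernatant and -0.03 to 0.03 with unused media. Chip 1 held only replicate 1 of media supernatant, so the value within that chip is the same -1.15 and no further check. With chip as a block the list median was -1.13. The count of 34 was 37 with chip as a block, 19 and 22 without unused media replicate 2 or 3, and 0 without either array of media supernatant. With the arrays scaled to a common median 1 passed, and the list median was -0.80.

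Of 11 kinases, cyclins and phosphatases of mitosis 6 fell. Plk1 (chr7:122159435-122169884), the polo-like kinase needed for mitotic entry and spindle assembly, had signals of 292 and 242 with media supernatant and 851, 748 and 722 with unused media (log2 fold change -1.48, standard error 0.19, adjusted p = 0.00438). Both arrays of media supernatant lay far below all arrays of unused media. Cdk1, the kinase that drives cells into mitosis, had signals of 699 and 703 with media supernatant and 1359.7, 1912 and 2157 with unused media (log2 fold change -1.32, standard error 0.21, adjusted p = 0.0102). Its arrays of unused media were spread more widely, replicate 1 being the lowest, without reaching those of media supernatant. Aurka, the kinase of centrosomes and spindle poles, had signals of 313 and 334 with media supernatant and 804, 779.7 and 750.2 with unused media (log2 fold change -1.22, standard error 0.18, adjusted p = 0.00797). Bub1b, a kinase of the spindle checkpoint, was dimmer, with signals of 54.3 and 75.1 with media supernatant and 148, 129.5 and 141 with unused media (log2 fold change -0.96, standard error 0.21, adjusted p = 0.0407). Among the 14 genes of the spindle, kinesins and cytokinesis 10 fell, with a median of -1.24. Kif22, a kinesin that pushes chromosome arms outward, had signals of 234 and 280.2 with media supernatant and 708, 667 and 715 with unused media (log2 fold change -1.39, standard error 0.18, adjusted p = 0.00425), and the groups were far apart. Kif4, a chromokinesin, had signals of 121 and 117 with media supernatant and 331, 324 and 427 with unused media (log2 fold change -1.47, standard error 0.20, adjusted p = 0.00473). Prc1, which bundles microtubules of the midzone, had signals of 1848 and 1668 with media supernatant and 3607, 4009 and 4814 with unused media (log2 fold change -1.22, standard error 0.19, adjusted p = 0.00945) and was the brightest of these.

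At the centromere and kinetochore 14 of 20 tested genes fell (median -1.13). The largest fall of the whole list was in Ndc80, which links kinetochores to microtubules, with signals of 83.3 and 65.1 with media supernatant and 275, 267 and 236 with unused media (log2 fold change -1.61, standard error 0.18, adjusted p = 0.00425). Spdl1, which recruits dynein to kinetochores and was in no list, had signals of 60.2 and 84.2 with media supernatant and 226, 234 and 313 with unused media (log2 fold change -1.63, standard error 0.22, adjusted p = 0.00472). Cenpa, the histone variant of centromeres, had signals of 3132 and 3755 with media supernatant and 6145, 6731 and 7055 with unused media (log2 fold change -0.95, standard error 0.18, adjusted p = 0.0213). Birc5, the survivin subunit of the chromosomal passenger complex, had signals of 482 and 427 with media supernatant and 832, 1242 and 1260.0 with unused media (log2 fold change -1.24, standard error 0.24, adjusted p = 0.0242). In both, every array of media supernatant was below every array of unused media, which held for 16.4% of all tested genes. Of 9 genes of the anaphase promoting complex and mitotic exit 4 fell, among them Cdc20, its activator, with signals of 616 and 774 with media supernatant and 1474, 1628 and 1639.6 with unused media (log2 fold change -1.17, standard error 0.20, adjusted p = 0.0139). The call of Cdc20 ended without replicate 2 of unused media (adjusted p = 0.0541). Those of Cenpa and Birc5 ended without replicate 2 or 3 of unused media (highest adjusted p = 0.0913). That of Bub1b ended without any 1 of the 3 arrays of unused media or replicate 2 or 3 of whole media (highest adjusted p = 0.143).

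**Figure D2:**
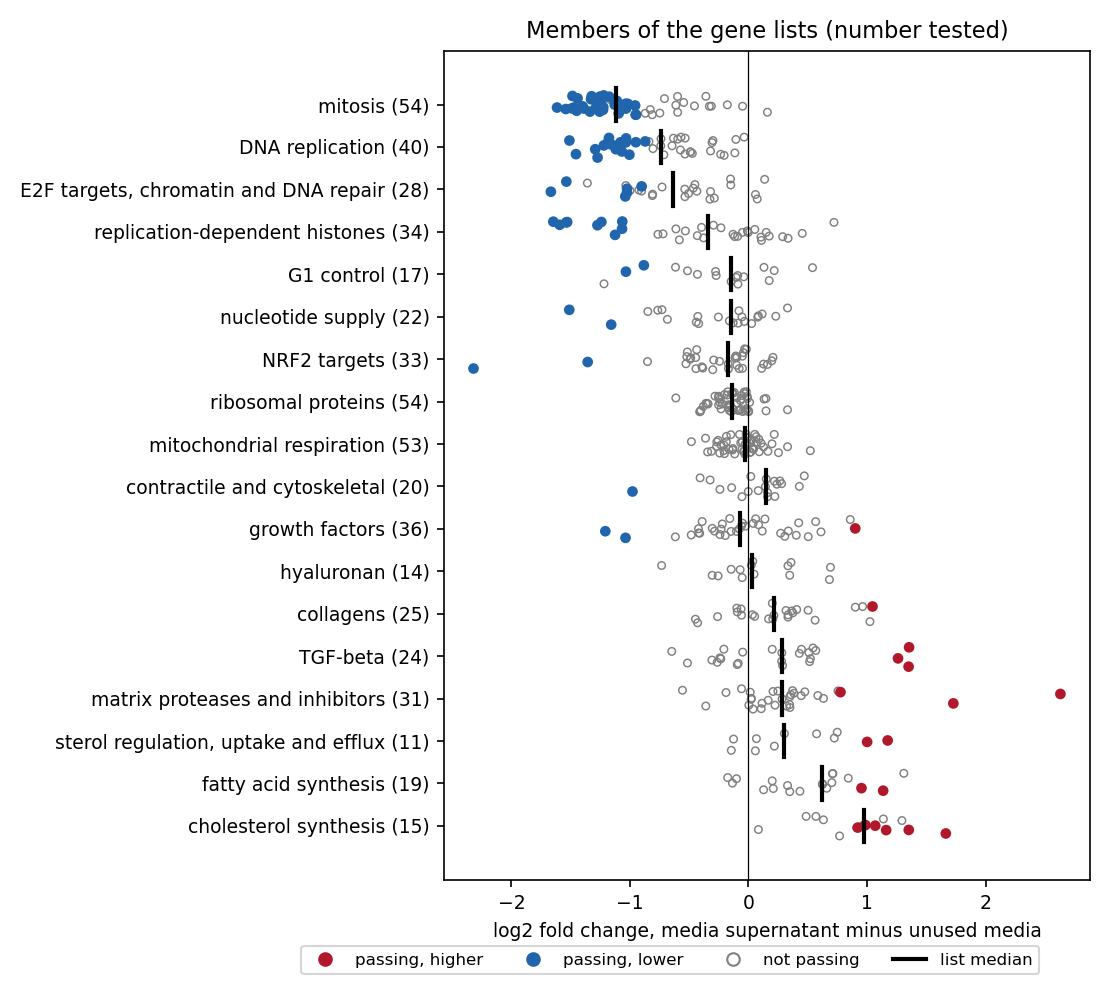
Each point is a tested member of a gene list, with its log2 fold change of media supernatant minus unused media on the x axis, lists down the page with the number tested, filled points for genes that passed, and a bar at the list median. The medians are lowest for mitosis (-1.12) and DNA replication (-0.74) and highest for cholesterol synthesis (0.97).

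DNA replication genes fell as well, 17 of 40 tested, with none higher and a median of -0.74. All 40 values lay below 0. The count was 17 with chip as a block (median -0.78), 8, 7 and 8 without unused media replicate 1, 2 or 3, 0 without either array of media supernatant and 0 with the arrays scaled to a common median (median -0.46). Genes at the fork made up 13 of the called genes, of 23 tested. Lig1, the ligase that joins Okazaki fragments, had signals of 254 and 232 with media supernatant and 694, 716 and 672 with unused media (log2 fold change -1.45, standard error 0.18, adjusted p = 0.00425). Timeless, which stabilizes stalled forks, had signals of 61.7 and 79.1 with media supernatant and 256, 198 and 237 with unused media (log2 fold change -1.51, standard error 0.20, adjusted p = 0.00438). The groups of both genes were far apart. Fen1, the flap endonuclease of the lagging strand, had signals of 712 and 483 with media supernatant and 1249, 1471 and 1626 with unused media (log2 fold change -1.27, standard error 0.23, adjusted p = 0.0161). Pole, the catalytic subunit of the leading strand polymerase, had signals of 42.7 and 49 with media supernatant and 146, 115 and 114 with unused media (log2 fold change -1.19, standard error 0.20, adjusted p = 0.0111). Rpa2, which coats single-stranded DNA, had signals of 65.8 and 46.7 with media supernatant and 115, 115 and 115 with unused media (log2 fold change -0.87, standard error 0.18, adjusted p = 0.0336), and its arrays of unused media were close together. With chip as a block the adjusted p of Rpa2 was 0.0560. Of 17 genes of origin licensing and firing 4 fell. Mcm5 and Mcm6 are subunits of the replicative helicase. Mcm5 had signals of 704 and 678 with media supernatant and 1857, 1676 and 1621 with unused media (log2 fold change -1.29, standard error 0.18, adjusted p = 0.00603). For Mcm6 the fall was smaller, with signals of 505 and 463 with media supernatant and 897, 925 and 1152 with unused media (log2 fold change -1.004, standard error 0.21, adjusted p = 0.0314), and with chip as a block the adjusted p was 0.0552. Mcm10, which helps to activate the helicase, had signals of 164 and 193 with media supernatant and 429, 423 and 458 with unused media (log2 fold change -1.22, standard error 0.18, adjusted p = 0.00781). Cdt1, which loads the helicase, had signals of 447 and 449.9 with media supernatant and 1012, 839.6 and 964 with unused media (log2 fold change -1.03, standard error 0.20, adjusted p = 0.0258). All were lower in both arrays of media supernatant than in any array of unused media, as were 16.4% of all tested genes. The call of Fen1 ended without replicate 2 or 3 of unused media (highest adjusted p = 0.0623). Those of Mcm6 and Cdt1 ended without any 1 of the 3 arrays of unused media (highest adjusted p = 0.101). That of Rpa2 ended without any 1 of the 3 arrays of unused media or replicate 2 or 3 of whole media (highest adjusted p = 0.106).

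Among enzymes that supply deoxynucleotides 2 of 7 fell, and none of 15 enzymes of purine, pyrimidine and folate synthesis passed in the limma fit (median -0.09, 2 lower at unadjusted p under 0.05). Over all 8885 tested genes 567 were lower at that threshold in the same fit. Tk1, thymidine kinase, had signals of 389 and 379 with media supernatant and 1176, 1216 and 993 with unused media (log2 fold change -1.51, standard error 0.19, adjusted p = 0.00425). Rrm1, the large subunit of ribonucleotide reductase, had signals of 228 and 236 with media supernatant and 547, 495 and 574 with unused media (log2 fold change -1.16, standard error 0.24, adjusted p = 0.0305). The partner subunit Rrm2 did not pass, with signals of 73.2 and 72.8 with media supernatant and 124, 127 and 157 with unused media (log2 fold change -0.76, standard error 0.20, adjusted p = 0.0958), nor did Tyms, thymidylate synthase, with signals of 440.3 and 530.3 with media supernatant and 666, 962 and 1074 with unused media (log2 fold change -0.85, standard error 0.25, adjusted p = 0.151). The groups of these 4 genes did not overlap, as was found in the lower direction for 16.4% of all tested genes. The call of Rrm1 ended without any 1 of the 3 arrays of unused media or replicate 2 of whole media (highest adjusted p = 0.103).

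Of 28 E2F targets and genes of chromatin and repair 6 fell, none rose, and the median was -0.63. Rad54l, a helicase of homologous recombination, had signals of 136 and 120.0 with media supernatant and 411, 383 and 409.7 with unused media (log2 fold change -1.54, standard error 0.19, adjusted p = 0.00425). Tcf19, a transcription factor induced in late G1, had the largest fall of this list, with signals of 292 and 201 with media supernatant and 762, 801 and 851 with unused media (log2 fold change -1.67, standard error 0.25, adjusted p = 0.00797). Uhrf1, which maintains DNA methylation, had signals of 740.4 and 738 with media supernatant and 1448, 1524 and 1591 with unused media (log2 fold change -1.02, standard error 0.18, adjusted p = 0.0128). Of the regulators themselves, Mybl2, which joins the MuvB complex, had signals of 42 and 44.1 with media supernatant and 112, 100 and 104 with unused media (log2 fold change -1.04, standard error 0.17, adjusted p = 0.0111). E2f2 had signals of 19.6 and 35.4 with media supernatant and 72.4, 82 and 60.1 with unused media (log2 fold change -1.02, standard error 0.21, adjusted p = 0.0314). Foxm1, a transcription factor of mitosis genes, did not pass, with signals of 120.5 and 113 with media supernatant and 185, 204 and 225 with unused media (log2 fold change -0.73, standard error 0.18, adjusted p = 0.0725). The histone variant gene H2az1 had signals of 2536 and 2230.1 with media supernatant and 3939, 4749 and 4724 with unused media (log2 fold change -0.90, standard error 0.20, adjusted p = 0.0460), and with chip as a block its adjusted p was 0.0811. The call of Uhrf1 ended without replicate 2 of unused media (adjusted p = 0.0503). That of E2f2 ended without any 1 of the 3 arrays of unused media or replicate 2 of whole media (highest adjusted p = 0.117). That of H2az1 ended without any 1 of the 3 arrays of unused media or replicate 2 or 3 of whole media (highest adjusted p = 0.156).

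Replication-dependent histone genes gave a mixed list, in which 9 of 34 tested fell, none rose and the median was -0.34. Of the 9 that fell 8 encode histone H2A. Histone genes of 1 class are near copies of each other and their probes may share transcripts, so the members are not separate measurements. H2ac10 had signals of 2176 and 1776 with media supernatant and 5919.8, 6052 and 5902 with unused media (log2 fold change -1.59, standard error 0.27, adjusted p = 0.0119). H2ac12 had signals of 1770.1 and 1438 with media supernatant and 3738, 4966 and 5452 with unused media (log2 fold change -1.54, standard error 0.26, adjusted p = 0.0128). H2ac22 had signals of 1287 and 1056 with media supernatant and 4078, 3991 and 3069 with unused media (log2 fold change -1.65, standard error 0.31, adjusted p = 0.0213). In each of these, both arrays of media supernatant lay below every array of unused media, which was a condition of the largest falls, to which they belong. H2ac7 had signals of 1982 and 1820.0 with media supernatant and 3978, 4933 and 4670.3 with unused media (log2 fold change -1.24, standard error 0.20, adjusted p = 0.00945). None of the histone H2B or H4 genes passed. The call of H2ac22 ended without replicate 1 or 2 of unused media (highest adjusted p = 0.0865). That of H2ac12 ended without replicate 2 or 3 of unused media (highest adjusted p = 0.0526).

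Entry into S phase was represented by 17 tested genes, of which 2 fell and none rose. Ccnd1, cyclin D1, which couples growth signals to G1, had signals of 764 and 711 with media supernatant and 1626, 1517 and 1439 with unused media (log2 fold change -1.03, standard error 0.17, adjusted p = 0.0111). Cdkn1a, which encodes the inhibitor p21, fell too, with signals of 561 and 551 with media supernatant and 991, 1174 and 960.3 with unused media (log2 fold change -0.88, standard error 0.18, adjusted p = 0.0321). The other 15 tested members of the G1 list did not pass, and Ccne2, a cyclin that activates CDK2, had signals of 29.3 and 10.6 with media supernatant and 55.8, 66.7 and 73 with unused media (log2 fold change -1.22, standard error 0.34, adjusted p = 0.139). Of 21 p53 targets, Cdkn1a fell and Gadd45a rose. Gadd45a, a growth arrest gene induced by DNA damage, had signals of 1419 and 1427 with media supernatant and 594, 677 and 521 with unused media (log2 fold change 1.24, standard error 0.27, adjusted p = 0.0369), and with chip as a block its adjusted p was 0.0625. Of 17 early genes of the AP-1 and EGR kind Fosl1 alone fell, with signals of 66.1 and 32.5 with media supernatant and 146, 135 and 183 with unused media (log2 fold change -1.43, standard error 0.27, adjusted p = 0.0221). The call of Fosl1 ended without any 1 of the 3 arrays of unused media (highest adjusted p = 0.0877). Those of Cdkn1a and Gadd45a ended without any 1 of the 3 arrays of unused media or replicate 2 of whole media (highest adjusted p = 0.133).

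**Figure D3:**
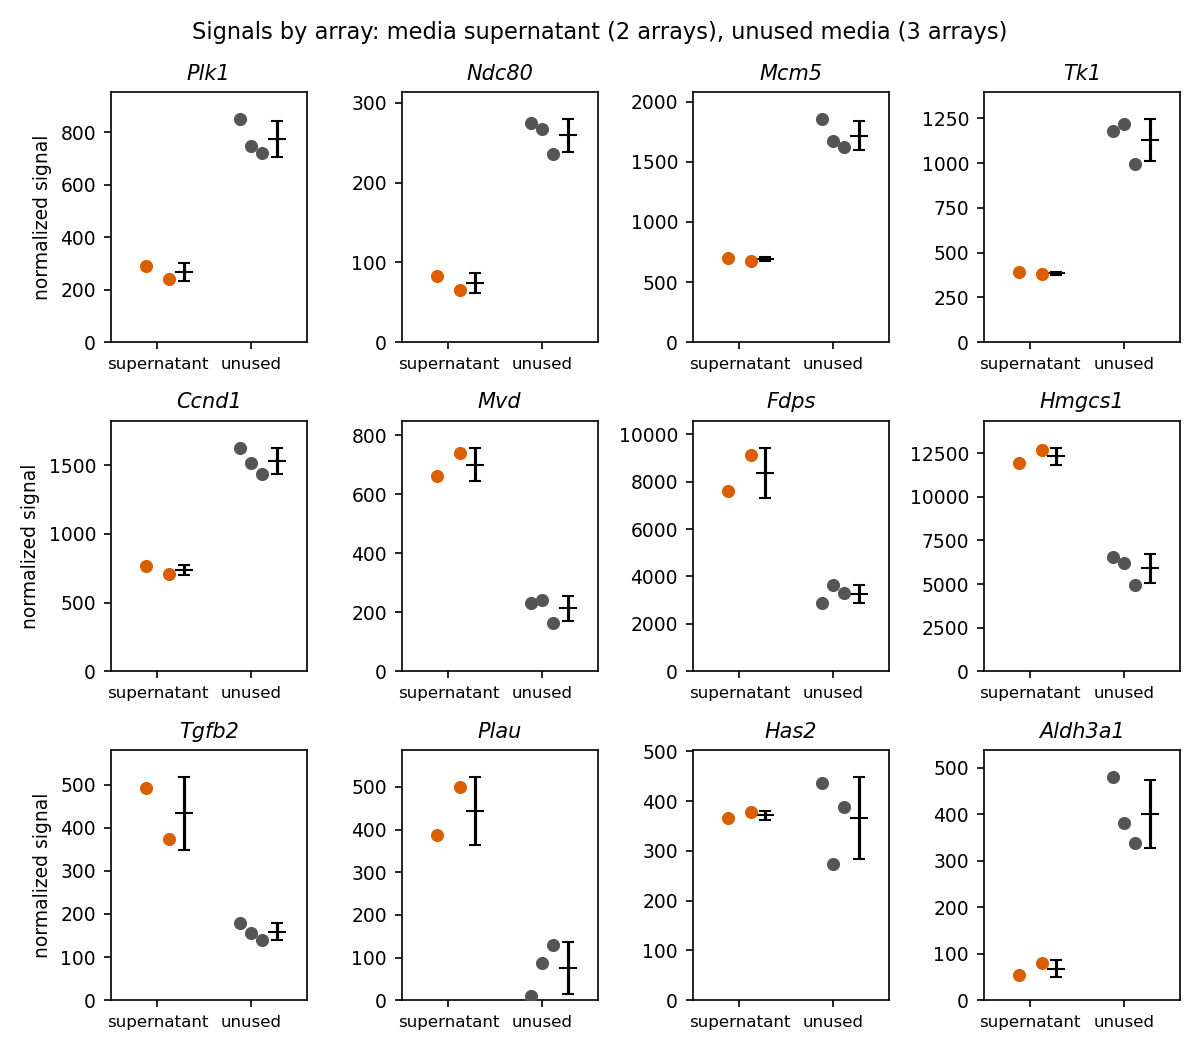
Normalized signals of 12 genes on a linear axis from 0, with 1 point per array, media supernatant on the left (2 arrays) and unused media on the right (3 arrays), and the mean with SD beside the points. The groups do not overlap for Plk1, Ndc80, Mcm5, Tk1, Ccnd1, Mvd, Fdps, Hmgcs1, Tgfb2, Plau and Aldh3a1, and they overlap for Has2. Of all tested genes 14.9% were higher and 16.4% lower without overlap.

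Enzymes of cholesterol synthesis rose with media supernatant. Of 15 tested 6 rose, none fell, and all 15 values were above 0, with a median of 0.97. Per array the list median, relative to the mean of unused media, was 0.98 and 0.95 with media supernatant and -0.03 to 0.11 with unused media. With chip as a block 8 passed, 10 passed without cardiomyocyte media replicate 1, 3 without unused media replicate 1, 2 or 3, and none without either array of media supernatant. Along the path, Hmgcs1, which makes HMG-CoA, had signals of 11974 and 12674 with media supernatant and 6530.4, 6213 and 4966 with unused media (log2 fold change 1.07, standard error 0.19, adjusted p = 0.0159). Pmvk, the next enzyme measured, did not pass, with signals of 116 and 138 with media supernatant and 54.3, 94.3 and 121 with unused media (log2 fold change 0.49, standard error 0.27, adjusted p = 0.526). Mvd (chr8:122433596-122443422), which decarboxylates mevalonate pyrophosphate, had the largest rise of the list, with signals of 661 and 741 with media supernatant and 231, 242 and 164 with unused media (log2 fold change 1.66, standard error 0.25, adjusted p = 0.00797). Both arrays of media supernatant lay far above all arrays of unused media, but groups apart were a condition of the largest rises, such as Mvd. Idi1, the isomerase after it, did not pass, with signals of 43.5 and 33.3 with media supernatant and 12.9, 23.5 and 26.7 with unused media (log2 fold change 0.57, standard error 0.21, adjusted p = 0.320). Fdps, which makes farnesyl pyrophosphate, had signals of 7616 and 9125 with media supernatant and 2868, 3634 and 3310.0 with unused media (log2 fold change 1.35, standard error 0.19, adjusted p = 0.00650).

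Past squalene, Sqle, the epoxidase, had signals of 4758 and 5777 with media supernatant and 2885, 2763 and 2629.7 with unused media (log2 fold change 0.92, standard error 0.20, adjusted p = 0.0407), and its adjusted p with chip as a block was 0.0749. Hsd17b7, the ketoreductase that acts on sterol C3, had signals of 2084 and 2679 with media supernatant and 1315, 1031 and 1226 with unused media (log2 fold change 0.99, standard error 0.20, adjusted p = 0.0276). Dhcr7, which makes cholesterol in the last step, had signals of 158 and 159 with media supernatant and 56.9, 68.1 and 61.7 with unused media (log2 fold change 1.16, standard error 0.22, adjusted p = 0.0224). In these 3 genes the groups were apart, as in 14.9% of all tested genes in the higher direction, and the arrays of unused media close together. The cyclase Lss had signals of 901 and 691 with media supernatant and 384, 382 and 292 with unused media (log2 fold change 1.14, standard error 0.27, adjusted p = 0.0582), and with chip as a block its adjusted p was 0.0157. Of the other enzymes that did not pass, the demethylase Cyp51 had a log2 fold change of 0.91 (adjusted p = 0.0953), Nsdhl of 1.29 (adjusted p = 0.0769), the methyl oxidase Msmo1 of 0.77 (adjusted p = 0.0511), the reductase Tm7sf2 of 0.97 (adjusted p = 0.0592) and the desaturase Sc5d of 0.63 (adjusted p = 0.403). Ebp, the sterol isomerase, had the smallest value, with signals of 408 and 513 with media supernatant and 409, 421 and 465 with unused media (log2 fold change 0.084, standard error 0.18, adjusted p = 0.897), and its groups overlapped. The call of Dhcr7 ended without any 1 of the 3 arrays of unused media (highest adjusted p = 0.0865). Those of Sqle and Hsd17b7 ended without any 1 of the 3 arrays of unused media or replicate 2 of whole media (highest adjusted p = 0.124).

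Both genes of the INSIG proteins, which hold SREBP in the endoplasmic reticulum when sterols are high, rose among 11 tested genes of sterol regulation, uptake and efflux (median 0.30). Insig1 had signals of 399 and 632 with media supernatant and 237, 208 and 198 with unused media (log2 fold change 1.17, standard error 0.24, adjusted p = 0.0314), and replicate 2 was the higher array. Insig2 had signals of 1217 and 1048 with media supernatant and 435, 649.9 and 609 with unused media (log2 fold change 1.001, standard error 0.22, adjusted p = 0.0416). Srebf2, the gene of SREBP2 itself, did not pass, with signals of 308 and 399 with media supernatant and 281, 223 and 130.3 with unused media (log2 fold change 0.75, standard error 0.30, adjusted p = 0.366). Of 19 genes of fatty acid synthesis and activation 2 rose, 16 values lay above 0, and the median was 0.62. Acsl3, an acyl-CoA synthetase of lipid droplets, had signals of 868 and 976 with media supernatant and 405, 387 and 439.6 with unused media (log2 fold change 1.14, standard error 0.18, adjusted p = 0.0101). Scd2, which puts the first double bond into fatty acids, had signals of 511 and 746 with media supernatant and 321, 353 and 266 with unused media (log2 fold change 0.95, standard error 0.21, adjusted p = 0.0460), and an adjusted p of 0.0829 with chip as a block. Fads2, the desaturase of polyunsaturated fatty acids, did not pass, with signals of 135 and 90.1 with media supernatant and 42.4, 58.1 and 14.5 with unused media (log2 fold change 1.31, standard error 0.36, adjusted p = 0.119). The call of Insig1 ended without any 1 of the 3 arrays of unused media or replicate 2 of whole media (highest adjusted p = 0.110). Those of Insig2 and Scd2 ended without any 1 of the 3 arrays of unused media or replicate 2 or 3 of whole media (highest adjusted p = 0.144).

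**Figure D4:**
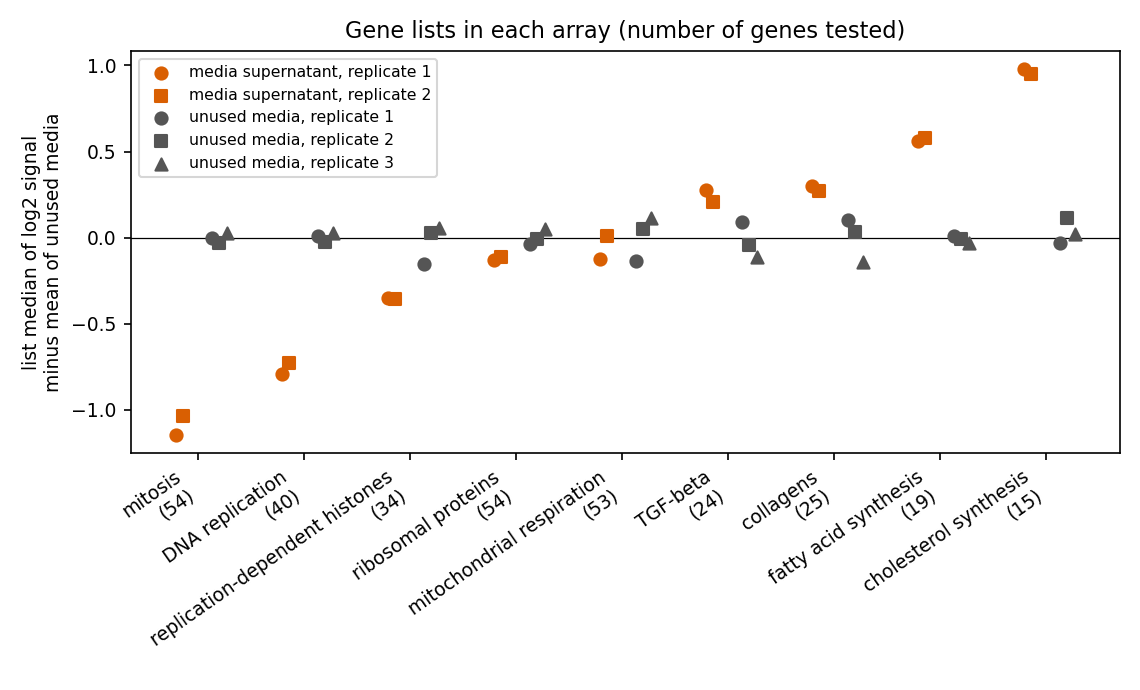
For 9 gene lists, each point is the median over the list of the log2 signal of 1 array minus the mean of unused media, media supernatant on the left and unused media on the right, with 1 symbol per replicate number. Both arrays of media supernatant lie below unused media for mitosis (-1.15 and -1.03) and DNA replication (-0.79 and -0.73) and above it for cholesterol synthesis (0.98 and 0.95), while those of mitochondrial respiration lie within the range of unused media.

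Hyaluronan (HA) is a glycosaminoglycan of the matrix that is made at the cell membrane by HAS enzymes, and TGF-beta is a signal that is known to raise matrix synthesis in fibroblasts. None of the 14 tested HA genes passed in the limma fit, with 2 higher and 1 lower at unadjusted p under 0.05, and their median was 0.03. Over all 8885 tested genes the unadjusted counts were 488 higher and 567 lower. Has2 was the 1 HA synthase tested, since Has1 was detected on no array and Has3 on 1. It had signals of 365 and 378 with media supernatant and 436, 274 and 387 with unused media (log2 fold change 0.047, standard error 0.24, adjusted p = 0.958), and unused media replicate 2 lay below and replicates 1 and 3 lay at or above the arrays of media supernatant. Its sign depended on the processing, with a value of -0.081 with chip as a block. Ugp2, which makes UDP-glucose for the precursor of HA, had signals of 519 and 619 with media supernatant and 414, 365 and 276 with unused media (log2 fold change 0.68, standard error 0.21, adjusted p = 0.181). Cd44, the main HA receptor, had signals of 139 and 167 with media supernatant and 282, 194 and 334 with unused media (log2 fold change -0.73, standard error 0.25, adjusted p = 0.250), lower in both arrays without passing.

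Of 24 tested TGF-beta genes 3 rose and none fell (median 0.28). Among the ligands Tgfb2 (chr1:186622787-186709697) rose, with signals of 493 and 373 with media supernatant and 179, 156 and 141 with unused media (log2 fold change 1.35, standard error 0.20, adjusted p = 0.00773). Both arrays of media supernatant were above all arrays of unused media, and replicate 1 was the higher. Groups apart were a condition of the largest rises, such as Tgfb2. Tgfb1 had signals of 226 and 148 with media supernatant and 141, 135 and 99 with unused media (log2 fold change 0.51, standard error 0.30, adjusted p = 0.545). Tgfb3 had signals of 819 and 809 with media supernatant and 523, 647 and 616 with unused media (log2 fold change 0.45, standard error 0.18, adjusted p = 0.371). Inhba, the subunit of activin A, had signals of 40.5 and 38 with media supernatant and 28.5, 19.9 and 18 with unused media (log2 fold change 0.54, standard error 0.20, adjusted p = 0.290). None of these 3 passed. Skil, which encodes SnoN, a repressor of SMAD complexes that TGF-beta induces, had signals of 307 and 345 with media supernatant and 116, 120.5 and 144 with unused media (log2 fold change 1.26, standard error 0.20, adjusted p = 0.00945). The call of Skil ended when the probes of a gene were averaged, and its lowest log2 fold change over the processing alternatives was 0.44. Pmepa1, a membrane protein that keeps SMADs from the receptor, was not detected with unused media and had signals of 59.6 and 60.7 with media supernatant and 14, 17 and 10.9 with unused media (log2 fold change 1.35, standard error 0.23, adjusted p = 0.0113). It was at least 2.12-fold higher with media supernatant, a bound that sets the bright mean against the lowest detected signal. No array of unused media helped it past the detection filter, so its p-value is no independent test of a rise. The 8 receptors and SMADs did not pass (median 0.24, 1 higher at an unadjusted p under 0.05), nor did the 6 target genes (median 0.09, 1 higher and 1 lower), of which Ccn2, connective tissue growth factor, had signals of 2738 and 2766 with media supernatant and 3799.6, 2609.7 and 3475 with unused media (log2 fold change -0.24, standard error 0.21, adjusted p = 0.688). With arrays scaled to a common median Ccn2 had a log2 fold change of 0.074. None of 10 genes of BMP signalling passed in the limma fit (median -0.02, 1 higher and 2 lower at unadjusted p under 0.05). Over all 8885 tested genes the unadjusted counts were 488 higher and 567 lower.

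Few matrix genes passed, but most of their values lay above 0. This held for 18 of 25 collagens, 24 of 30 glycoproteins and proteoglycans and 27 of 31 proteases and inhibitors, compared with 4405 of all 8885 genes. At unadjusted p under 0.05 in the limma fit, 488 of all 8885 genes were higher and 567 lower. Of 25 collagen genes Col3a1 alone rose (median 0.21), and none of 30 matrix glycoproteins and proteoglycans passed in the limma fit (median 0.24, 8 higher and 2 lower at unadjusted p under 0.05). Col3a1, the chain of type III collagen and also a fibroblast marker, had signals of 2983 and 2616 with media supernatant and 1445, 1418 and 1189 with unused media (log2 fold change 1.04, standard error 0.18, adjusted p = 0.0137). Of the proteases 3 rose among 31 genes of proteases and their inhibitors (median 0.28). Plau (chr14:20836662-20843388), the protease urokinase that activates plasminogen, had the largest rise of all tested genes over the 5 arrays, with signals of 388 and 500.3 with media supernatant and 10.5, 87.4 and 130.0 with unused media (log2 fold change 2.63, standard error 0.54, adjusted p = 0.0312). Unused media replicate 1 was far below the other arrays of unused media, and leaving it out gave a log2 fold change of 1.89 (adjusted p = 0.0214), compared with 1.91 for Plac1, so that its rank rests on this array. With chip as a block the adjusted p of Plau was 0.0626. Its call also ended with the authors' normalized values, without a detection filter and with trend and robust moderation. Adamts4, which cleaves aggrecan, had signals of 167 and 208 with media supernatant and 42.9, 43.8 and 48.7 with unused media (log2 fold change 1.73, standard error 0.24, adjusted p = 0.00650). Ctsl, the lysosomal protease cathepsin L, had signals of 990.4 and 1098 with media supernatant and 651, 594 and 564 with unused media (log2 fold change 0.78, standard error 0.18, adjusted p = 0.0478), and an adjusted p of 0.0785 with chip as a block. The call of Plau ended without replicate 2 of unused media or replicate 2 of whole media (highest adjusted p = 0.0573). That of Ctsl ended without any 1 of the 3 arrays of unused media or replicate 2 or 3 of whole media (highest adjusted p = 0.148).

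Of 36 growth factor genes 1 rose and 2 fell (median -0.07). Ccn4, a matricellular protein that WNT induces, had signals of 3731 and 3624 with media supernatant and 2080.4, 2001 and 1814 with unused media (log2 fold change 0.90, standard error 0.17, adjusted p = 0.0230). Fgf10, a growth factor of mesenchyme, had signals of 314 and 302 with media supernatant and 637, 531 and 809 with unused media (log2 fold change -1.04, standard error 0.22, adjusted p = 0.0336). Angptl4, an inhibitor of lipoprotein lipase, had signals of 1531 and 1211 with media supernatant and 3273, 3094 and 3132 with unused media (log2 fold change -1.21, standard error 0.19, adjusted p = 0.00903). Among 20 contractile and cytoskeletal genes (median 0.15) Mylk, the kinase of myosin light chain, fell, with signals of 52.1 and 45.7 with media supernatant and 136, 99 and 105 with unused media (log2 fold change -0.99, standard error 0.21, adjusted p = 0.0355). The call of Fgf10 ended without replicate 1 or 3 of unused media or replicate 2 or 3 of whole media (highest adjusted p = 0.102). That of Ccn4 ended without any 1 of the 3 arrays of unused media (highest adjusted p = 0.0751). That of Mylk ended without any 1 of the 3 arrays of unused media or replicate 2 of whole media (highest adjusted p = 0.133).

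Of 33 targets of NRF2, the factor that answers oxidative stress, 2 fell and none rose (median -0.17). Aldh3a1 (chr11:61208510-61218418), an aldehyde dehydrogenase that is also a target of the aryl hydrocarbon receptor, had the largest fall of all genes, with signals of 54.8 and 80.4 with media supernatant and 481, 381 and 339 with unused media (log2 fold change -2.32, standard error 0.24, adjusted p = 0.00425). Both arrays of media supernatant were far below all arrays of unused media, but groups apart were a condition of the largest falls, such as Aldh3a1. Ephx1, an epoxide hydrolase, had signals of 539.6 and 551 with media supernatant and 1229, 1339.5 and 1741 with unused media (log2 fold change -1.36, standard error 0.20, adjusted p = 0.00773). Nqo1, a classic NRF2 target, overlapped between groups, with signals of 239.6 and 348 with media supernatant and 242, 542 and 528 with unused media (log2 fold change -0.49, standard error 0.32, adjusted p = 0.587), and Slc7a11, the cystine transporter, did not pass, with signals of 11.7 and 19.7 with media supernatant and 35.6, 25 and 70.6 with unused media (log2 fold change -0.85, standard error 0.29, adjusted p = 0.255). In the limma fit none of the 30 ATF4 targets (median -0.12) passed, and at an unadjusted p under 0.05 there were 2 higher and 5 lower. Nor did any of 24 genes of the endoplasmic reticulum and heat shock (median 0.08, 2 higher unadjusted) or 27 genes of hypoxia and glycolysis (median 0.08, 1 higher and 3 lower unadjusted). Over all 8885 tested genes the unadjusted counts were 488 higher and 567 lower.

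Interferon-stimulated genes and genes of retinoid handling each gave 2 rises. Usp18, which removes ISG15 from proteins, had signals of 103 and 109 with media supernatant and 45, 45.5 and 20.8 with unused media (log2 fold change 1.24, standard error 0.24, adjusted p = 0.0230). Oasl2 had signals of 59.1 and 57.4 with media supernatant and 29.4, 19.8 and 18.5 with unused media (log2 fold change 0.96, standard error 0.19, adjusted p = 0.0297), out of 29 tested genes of interferon and antigen presentation (median 0.14). Cyp26b1, which degrades retinoic acid, had signals of 177 and 177 with media supernatant and 59.5, 50.1 and 61.4 with unused media (log2 fold change 1.41, standard error 0.22, adjusted p = 0.00945). Stra6, a receptor that takes up retinol, had signals of 80.9 and 62.7 with media supernatant and 11.5, 34.3 and 8.31 with unused media (log2 fold change 1.44, standard error 0.31, adjusted p = 0.0398), out of 20 genes of the glucocorticoid and retinoid list (median 0.09). Ccl8, a chemokine for monocytes, was the 1 of 24 genes of chemokines, cytokines and acute phase that passed, with signals of 329.9 and 449 with media supernatant and 129, 48.8 and 135 with unused media (log2 fold change 1.83, standard error 0.39, adjusted p = 0.0353). Unused media replicate 2 was the low array of Ccl8. With chip as a block the adjusted p was 0.0672 for Ccl8 and 0.0537 for Stra6. The call of Stra6 ended without replicate 1 or 3 of unused media or replicate 2 of whole media (highest adjusted p = 0.157). That of Oasl2 ended without replicate 2 or 3 of unused media (highest adjusted p = 0.105). That of Ccl8 ended without any 1 of the 3 arrays of unused media or replicate 3 of whole media (highest adjusted p = 0.0788).

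Semaphorins are guidance signals, and S100 proteins bind calcium. Sema7a, a membrane-anchored semaphorin, had signals of 269 and 326 with media supernatant and 75.1, 59 and 88.8 with unused media (log2 fold change 1.80, standard error 0.22, adjusted p = 0.00425). Sema5a had signals of 874 and 943 with media supernatant and 439.6, 350.4 and 579 with unused media (log2 fold change 0.997, standard error 0.22, adjusted p = 0.0395), and an adjusted p of 0.0628 with chip as a block. S100a4, which is linked to cell motility and also stands among the fibroblast markers, had signals of 156 and 176 with media supernatant and 727, 577 and 812 with unused media (log2 fold change -1.98, standard error 0.24, adjusted p = 0.00425). The median of the 23 tested genes of the list was -0.06. The call of Sema5a ended without replicate 1 or 2 of unused media or replicate 2 or 3 of whole media (highest adjusted p = 0.132).

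Several of the strongest differences lay outside the lists. Plac1, first known from placenta, had signals of 189 and 165 with media supernatant and 14.1, 45.2 and 26.7 with unused media (log2 fold change 2.17, standard error 0.27, adjusted p = 0.00425). Clu, the secreted chaperone clusterin, had signals of 1445 and 1331 with media supernatant and 464, 444 and 405 with unused media (log2 fold change 1.63, standard error 0.17, adjusted p = 0.00425), with arrays of either group close together. Ddx25, an RNA helicase known from testis, had signals of 261 and 283 with media supernatant and 45.9, 69.5 and 113 with unused media (log2 fold change 1.71, standard error 0.28, adjusted p = 0.0103). Klra17, of the family of natural killer cell receptors, had signals of 77.1 and 160.2 with media supernatant and 29, 17.4 and 12.6 with unused media (log2 fold change 1.87, standard error 0.39, adjusted p = 0.0314). Tmem158 had signals of 62.8 and 73.3 with media supernatant and 8.24, 24.4 and 8.83 with unused media (log2 fold change 1.53, standard error 0.32, adjusted p = 0.0336), with an adjusted p of 0.0644 for Tmem158 with chip as a block. Angptl1, a secreted protein related to angiopoietins, was not detected with unused media. It had signals of 63.7 and 70 with media supernatant and 6.66, 7.82 and 5.29 with unused media (log2 fold change 1.87, standard error 0.24, adjusted p = 0.00438) and was at least 2.3-fold higher with media supernatant. Like Pmepa1, it met the detection filter only through arrays other than those of unused media. Among the falls, Prkg2, a kinase activated by cyclic GMP, had signals of 267 and 287 with media supernatant and 1217, 846 and 1255 with unused media (log2 fold change -1.92, standard error 0.22, adjusted p = 0.00425). Cdsn, an adhesion protein of cornified skin, had signals of 22.2 and 21.7 with media supernatant and 94.1, 104 and 151 with unused media (log2 fold change -1.78, standard error 0.22, adjusted p = 0.00425). Mlf1 had signals of 38.9 and 36.9 with media supernatant and 104, 104 and 279 with unused media (log2 fold change -1.59, standard error 0.34, adjusted p = 0.0362), and an adjusted p of 0.0672 with chip as a block, and Ccdc144b had signals of 12.2 and 16.1 with media supernatant and 67.1, 42.8 and 133 with unused media (log2 fold change -1.58, standard error 0.33, adjusted p = 0.0314). For Mlf1 and Ccdc144b unused media replicate 3 was the high array. The call of Mlf1 ended without replicate 2 or 3 of whole media (highest adjusted p = 0.0663). That of Ccdc144b ended without replicate 1 or 3 of unused media or replicate 2 of whole media (highest adjusted p = 0.0938). That of Tmem158 ended without replicate 1 or 3 of unused media or replicate 3 of whole media (highest adjusted p = 0.138). That of Klra17 ended without any 1 of the 3 arrays of unused media (highest adjusted p = 0.129).

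Lists of housekeeping function held no called gene. None of 54 ribosomal proteins passed, although 48 values were below 0 (median -0.13, lowest and highest -0.61 in Rps15a and 0.33 in Rps3). At an unadjusted p under 0.05 in the limma fit 1 of them was lower and none higher. The same counts, 1 lower and none higher unadjusted, were found for 31 genes of ribosome biogenesis (median -0.17), 53 of mitochondrial respiration (median -0.03) and 31 of the proteasome (median -0.10), of which none passed. Of 14 genes of metal handling (median -0.04), 11 integrins (median 0.08), 19 genes of WNT and Notch (median 0.16) and 15 of the circadian clock (median 0.02) none passed either, and 1, 2, 3 and 3 of them were higher and 0, 1, 2 and 0 lower at unadjusted p under 0.05. Over all 8885 tested genes 488 were higher and 567 lower at that threshold in the same fit. The share of higher genes in the WNT and Notch and the clock lists was thus above that of all genes.

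Media supernatant was also set against whole cardiomyocyte media, which had not been ultracentrifuged. In this contrast 434 of 8885 genes passed (4.88%), 156 higher (1.76%) and 278 lower (3.13%) with media supernatant, and the arrays of media supernatant are the same as above. Without media supernatant replicate 1 the counts were 52 higher and 107 lower, without its replicate 2 they were 56 and 139, and without whole media replicate 2 they were 96 and 181. Mitosis genes were lower than with whole cardiomyocyte media too, 44 of 54 passing with a median of -1.32, and of the replication genes 22 of 40 were lower. Whole media itself did not lower the mitosis list, whose medians relative to the mean of unused media were 0.15, 0.20 and 0.10. Those of the replication list with whole media were 0.04, -0.08 and -0.08. Of the cholesterol genes 3 of 15 were higher than with whole media, among them Mvd (1.02, standard error 0.25, adjusted p = 0.0410). With 1 array left out in turn, the call of Mvd held only when that was replicate 3 of unused or of whole media (highest adjusted p = 0.253). Usp18 had signals of 103 and 109 with media supernatant and 11.5, 13.8 and 16.8 with whole media (log2 fold change 2.03, adjusted p = 6.33e-04). Fgf10 had 314 and 302 with media supernatant and 98.6, 136 and 114 with whole media (log2 fold change 1.30, adjusted p = 0.00474, and 0.0622 without media supernatant replicate 1). Aldh3a1 had 54.8 and 80.4 with media supernatant and 12.1, 26.5 and 18.5 with whole media (log2 fold change 1.26, adjusted p = 0.0105, and 0.137 without media supernatant replicate 2). These genes were higher than with whole media, although Fgf10 and Aldh3a1 were lower than with unused media. Usp18 and Aldh3a1 were not detected on every array and had their lowest signals with whole media. Their detection rests mainly on the other groups, so their p-values in this contrast are no independent test of a difference.

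Other genes were lower than with whole cardiomyocyte media. Prelp, a proteoglycan of connective tissue, had signals of 135 and 161 with media supernatant and 1717, 2495 and 2169.8 with whole media (log2 fold change -3.69, standard error 0.21, adjusted p = 1.05e-05). Inhba had 40.5 and 38 with media supernatant and 258, 210.1 and 206 with whole media (log2 fold change -2.12, adjusted p = 1.26e-04). Mylk had 52.1 and 45.7 with media supernatant and 182, 247 and 250.1 with whole media (log2 fold change -1.89, adjusted p = 4.52e-04). For Sema7a, Plac1 and Adamts4 the log2 fold changes were -1.17 (adjusted p = 0.0108), -1.15 (adjusted p = 0.0356) and -1.01 (adjusted p = 0.0365), and these calls ended without either array of media supernatant (highest adjusted p = 0.325). The call of Plac1 ended as well without replicate 3 of unused media or any 1 array of whole media, and that of Adamts4 without any 1 array of unused media or replicate 2 or 3 of whole media. Prss35, a secreted protein of the serine protease family that was chosen after its values were seen, had 208 and 233 with media supernatant, 10.7, 13.3 and 13.1 with whole media and 105, 113 and 93.2 with unused media. It was higher than with whole media (log2 fold change 3.06, standard error 0.18, adjusted p = 1.05e-05) and than with unused media (log2 fold change 0.98, adjusted p = 0.0166). Against unused media its call ended without unused media replicate 1 or 3 (highest adjusted p = 0.0549). Prss35 was not detected on every array and had its lowest signals with whole media. It was also chosen by its values, so its p-value against whole media is no independent test of a difference. Tgfb2, Skil and Col3a1 did not pass in this contrast, with log2 fold changes of -0.29, -0.03 and -0.14 (standard errors 0.20, 0.20 and 0.18).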

How the data were processed

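Illumina MouseRef-8 bead arrays measured the RNA of NIH 3T3 fibroblasts, and samples were grouped by their titles. The authors deposited, as BeadStudio wrote it, each probe's mean intensity without normalization, its bead error and a detection p-value. The submitters' processing notes give BeadStudio as version 3.3. A deposited table of values normalized by cubic spline after subtraction of background, linear and with some below 0, was used as an alternative. From the intensities, limma 3.58.1 under R 4.3.3 computed normexp background correction with negative controls inferred from the detection p-values, with an offset of 16, followed by quantile normalization and a log2 transformation. Signals in the text are linear, with the offset taken off again. A fold change is on the scale that includes the offset, which makes changes of dim genes smaller. Of 25697 probes 23978 were named through the platform annotation and RefSeq. The brightest probe with a detection p under 0.05 on at least 2 of the 8 arrays stood for each of 8885 genes. The linear model of limma with empirical Bayes moderation had 1 coefficient per group over all 8 arrays, and p-values were adjusted by Benjamini-Hochberg over all genes (threshold 0.05).

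The members and gene lists were chosen with earlier results of these data known. The named genes are the 15 largest rises and falls among called genes whose groups do not overlap, called members of lists, 6 members per list by smallest p, and the members of the HA, TGF-beta and marker lists, of which not all are printed. The cholesterol enzymes that did not pass, Foxm1, Ube2s, Rps3 and Prss35 were named outside this rule, after their values were seen. Promoter windows came from RefSeq (GRCm38.p6), and 7252 of the tested genes had one. Alternatives were cyclic loess, median scaling, no background correction, an offset of 50, the authors' normalized values floored at 16, no detection filter, detection on all arrays or on 2 of the 5 arrays, averaged probes, trend and robust moderation, array weights, a fit of the 5 arrays, chip as a block or random block, chip 1 only, a replicate block, a fold of 1.5 with a signal of 50, and each array left out. For the contrast with whole media they were added with its results in view.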

Additional observations from a re-analysis of the deposited data

How the results depend on the processing

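Of the 25 alternatives, 23 or 24 were applied to each single gene. None of the 79 called genes of the comparisons above changed sign in them. Of these genes, 19 passed in every alternative that kept both arrays of media supernatant and in which they were tested. The 6 genes named below only for a bound were not followed through the alternatives. The count of genes higher (65) was 98 without background correction, 98 with trend and robust moderation, 111 with array weights, 0 within chip 1 and 27 with a replicate block. The count lower (129) was 10 with median scaling, 0 within chip 1 and 70 with a replicate block. The median of the mitosis genes (-1.12) was -0.76 without background correction, -0.93 with an offset of 50, -0.80 with median scaling, -1.21 with the authors' values, -1.22 with detection on all arrays and -1.0 with averaged probes. Of its 34 lower genes 1 passed with median scaling, 0 within chip 1 and 18 with a replicate block. The median of DNA replication (-0.74) was -0.51 without background correction, -0.57 with an offset of 50, -0.46 with median scaling, -0.93 with the authors' values, -0.80 with array weights, -0.78 with chip as a block and -0.79 both with it as a random block and within chip 1. Its 17 lower genes became 0 with median scaling, 0 within chip 1 and 8 with a replicate block. The median of cholesterol synthesis (0.97) was 0.85 without background correction, 0.90 with an offset of 50 and 1.24 with median scaling. Its 6 higher genes became 10 without background correction, with an offset of 50, with trend and robust moderation and with chip as a random block, 11 with array weights, 0 within chip 1 and 3 with a replicate block.

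Against whole media, the counts (156 higher, 278 lower) were 257 higher with chip as a block, and 97 higher and 161 lower with median scaling. Without 1 array they were 52 to 169 higher and 107 to 313 lower. Against unused media these ranges were 0 to 86 higher and 0 to 157 lower, 0 to 37 for mitosis, 0 to 18 for DNA replication and 0 to 10 for cholesterol synthesis, with medians of -1.15 to -1.03, -0.80 to -0.68 and 0.92 to 1.0. A lone array of media supernatant, also within chip 1, was assumed to vary like the other groups. Ccn2 changed sign with median scaling (0.074), Ebp within chip 1 (-0.076) and with chip as a block (-0.0053), and Has2 with chip as a block (-0.081) and as a random block (-0.011). Without 1 array Ebp ranged over -0.076 to 0.24 and Has2 over -0.14 to 0.18. The cause of these changes was not tested. The replicate numbers of the titles mark no known pairing, and arrays with the same number deviated from their group means with correlations of -0.13 and -0.092. Probes not detected in a group give only a bound there.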

Other observations

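Probes without a gene name in the annotation used here were left out of the comparisons. When all 12751 detected probes were tested, 199 passed, and among 738 unnamed probes 3 were higher and 9 lower with media supernatant. Where a called gene had more than 1 detected probe, 51 of 54 genes had the same sign in all of them. Sizes could differ between probes. Averaging the probes of a gene ended the calls of Cdk1, Cdc20, Lig1, Rpa2, E2f2, Sqle, Insig1, Insig2, Acsl3 and Skil. It also ended those of Col3a1, Ccn4, Fgf10, Mylk and Usp18. The authors' normalized values ended the calls of Birc5, Mcm6, Rrm1, E2f2, H2az1, H2ac22, Gadd45a, Fosl1, Sqle, Insig1 and Insig2. They also ended those of Scd2, Plau, Fgf10, Usp18, Ccl8, Stra6, Sema5a, Klra17, Mlf1, Ccdc144b and Tmem158.

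Apart from Angptl1 and Pmepa1, 6 called genes were detected in 1 of the groups only, and they were chosen after their values were seen. Each met the detection filter without the group that lacked detection, so its p-value is no independent support for a difference. Adgra1 was at least 1.63-fold higher with media supernatant, Fjx1 at least 1.66-fold, Sin3b at least 1.52-fold, Dlg2 at least 1.57-fold and Rxfp3 at least 1.44-fold. Aldh1a7 was at least 1.58-fold lower with media supernatant.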
